A study of Homo sapiens with 11 samples.

Results

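The miR-181 family was followed across 6 human tumour-derived cell lines by small RNA-seq. The 6 members were hsa-miR-181a-5p, hsa-miR-181a-3p, hsa-miR-181a-2-3p, hsa-miR-181b-5p, hsa-miR-181c-5p and hsa-miR-181d-5p (written without the species prefix from here on), chosen by name out of 2588 mature miRNAs listed. They occupied 8 of the 2813 rows per table, because miR-181a-5p and miR-181b-5p were listed once for each of their genomic copies. There were 2 libraries each of the lung line A-549, the melanoma line MV3, the ovarian line ES-2, the liver line Hep-G2 and the neuroblastoma line BE(2)-C, and 1 library of the pancreatic line PANC-1. All 11 libraries came from parental cells that carried no introduced allele and received no agent. Cells were harvested 48 h after seeding, except that for BE(2)-C the protocol gave 24 h and the sample characteristics 48 h. Novogene made the 4 libraries of Hep-G2 and BE(2)-C, and the other 7 were made with a NEXTflex kit, so that line and preparation cannot be told apart wherever a comparison crosses these sets. In the study these libraries served to describe which miRNAs were abundant in cells in which the RNA-binding protein IGF2BP1 was examined. Each line is an established culture and stands for no more than itself as a model of its tumour type.

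A miRNA is cut from a hairpin precursor that holds a strand on its 5' side (5p) and a strand on its 3' side (3p). The strand loaded into an Argonaute protein guides it to mRNAs, mainly by pairing of the seed, bases 2 to 8. The miR-181 family is conserved among vertebrates and is best known for tuning antigen receptor signalling in lymphocytes, and its members have been studied in many tumours. The mature sequences are shown because they define which members can be told apart by reads and which share a seed (capitals), as given by RefSeq for GRCh38.p14:
miR-181a-5p: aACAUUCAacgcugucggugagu
miR-181b-5p: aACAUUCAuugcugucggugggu
miR-181c-5p: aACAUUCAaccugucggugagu
miR-181d-5p: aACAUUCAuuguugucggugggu
miR-181a-3p: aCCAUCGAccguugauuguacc
miR-181a-2-3p: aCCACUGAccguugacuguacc
miR-181b-3p: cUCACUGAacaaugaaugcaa
miR-181b-2-3p: cUCACUGAucaaugaaugca
All 10 arms looked up had a RefSeq mature sequence. The 4 5p members had the seed ACAUUCA in common. Of the listed miRNAs with a RefSeq sequence, miR-4262 was the other one with this seed, and it had 0 reads in all 11 libraries. Counted from 1 at the 5' end, miR-181a-5p and miR-181b-5p differed by A9U, C10U and A21G, miR-181b-5p and miR-181d-5p by C12U alone. miR-181c-5p was 1 edit away from miR-181a-5p, being 22 rather than 23 bases long. The 3p strands of the miR-181a hairpins differed by U5C, C6U and U16C, with miR-181a-3p given first, and therefore had different seeds.

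The family arises from 3 clusters, each of which places a pair of hairpins on the same strand (GRCh38, GENCODE). On chromosome 1, MIR181A1 (ENSG00000207759.1, 198859044 to 198859153, minus strand) and MIR181B1 (ENSG00000207975.1, 198858873 to 198858982) lay 61 bases apart in an intron of the lncRNA gene MIR181A1HG. On chromosome 9, MIR181A2 (ENSG00000207595.1, 124692442 to 124692551, plus strand) and MIR181B2 (ENSG00000207737.1, 124693710 to 124693798) lay 1158 bases apart in an intron of MIR181A2HG and, on the opposite strand, in an intron of NR6A1. On chromosome 19, MIR181C (ENSG00000207613.1, 13874699 to 13874808, plus strand) and MIR181D (ENSG00000207585.1, 13874875 to 13875011) lay 66 bases apart in an intron of NANOS3. The 5p strands of the chromosome 1 and chromosome 9 hairpins are identical, whereas their 3p strands differ, so that only the 3p strands carry the cluster of origin.

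The libraries held between 1173902 (MV3 replicate 1) and 12137452 (Hep-G2 replicate 2) miRNA reads, and levels are given as CPM, counts per 1000000 miRNA reads. A level of 0 allows up to 3 reads, from 0.247 CPM in the deepest library to 2.56 CPM in the shallowest. Both Hep-G2 libraries stood apart: miR-148a-3p took 75.3% and 72.6% of their reads and the 5 most abundant miRNAs took 95.05% and 94.7%, against 40.4% to 76.3% in the other 9 libraries. Correspondingly, the trimmed mean of M-values (TMM) factors were 0.166 and 0.217 in Hep-G2 and 1.02 to 1.87 elsewhere, so that levels in Hep-G2 are given on both scales where the choice matters. Of the markers for the labelled tissues, miR-192-5p was highest in Hep-G2 (15859 CPM), but the liver marker miR-194-5p was higher in A-549 (1891 CPM) than in Hep-G2 (230 CPM). The neural markers miR-218-5p (78501 CPM), miR-9-5p (16715 CPM) and miR-124-3p (22.9 CPM) were highest in BE(2)-C, whereas miR-128-3p was highest in PANC-1 (2938 CPM) and lower in BE(2)-C (1569 CPM) than in 4 of the other lines. The hepatocyte miRNA miR-122-5p had 57.0 CPM in Hep-G2 but 5.96 and 823 CPM in the BE(2)-C libraries, and the melanocyte miRNA miR-211-5p was at 0 reads in every library, MV3 included. The pancreatic miRNAs miR-216a-5p and miR-217 were at 0 in PANC-1.

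miR-181a-5p and miR-181b-5p, the 5p strands made by the chromosome 1 and 9 clusters, were the abundant 5p members and were close to each other, with ratios of 0.651 (MV3) to 1.51 (PANC-1). miR-181a-5p was measured at 1540 and 1607 CPM in A-549, 1086 and 1198 in ES-2, 716 and 881 in MV3, 875 in PANC-1, 708 and 1649 in BE(2)-C and 12.7 and 11.2 in Hep-G2. The 9 libraries outside Hep-G2 spanned 708 to 1649 CPM, and both Hep-G2 libraries lay below them. The mean was highest in A-549 with 1573 ± 47.2 CPM (SD, n = 2) and lowest in Hep-G2 with 11.96 ± 1.06 CPM (n = 2), a ratio of 132. With TMM factors these 2 means were 1483 and 64.0 CPM. Within the NEXTflex lines the highest and the lowest mean differed 1.97-fold, and 3.44-fold with TMM factors. BE(2)-C overlapped its neighbours A-549 and ES-2 in the order, and MV3 overlapped PANC-1. By rank, miR-181a-5p stood between place 37 and place 94 of all miRNAs in the 9 libraries outside Hep-G2, and at places 154 and 163 in Hep-G2.

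miR-181b-5p was measured at 1431 and 1351 CPM in A-549, 1073 and 1036 in ES-2, 1061 and 1405 in MV3, 579 in PANC-1, 1143 and 2102 in BE(2)-C and 8.50 and 7.74 in Hep-G2. The order of means ran from BE(2)-C (1622 ± 678 CPM, SD, n = 2) through A-549 (1391 ± 56.7, n = 2), MV3 (1233 ± 243, n = 2) and ES-2 (1054 ± 26.5, n = 2) to PANC-1, and neighbours from BE(2)-C down to ES-2 overlapped. PANC-1 lay below all of these and Hep-G2 lay 200-fold below BE(2)-C, both by CPM. With TMM factors A-549 had the highest mean (1313 CPM), above BE(2)-C (1045 CPM), and Hep-G2 had 43.4 CPM. Both members were listed with 1 row per genomic copy, whose reads have identical sequence. The ratio of the chromosome 9 row to the chromosome 1 row was 0.915 to 1.07 for miR-181a-5p, and 1.11 to 1.33 for miR-181b-5p, with the chromosome 9 row of miR-181b-5p higher in 11 of 11 libraries. These rows were summed, since they do not tell the loci apart.

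**Figure D1:**
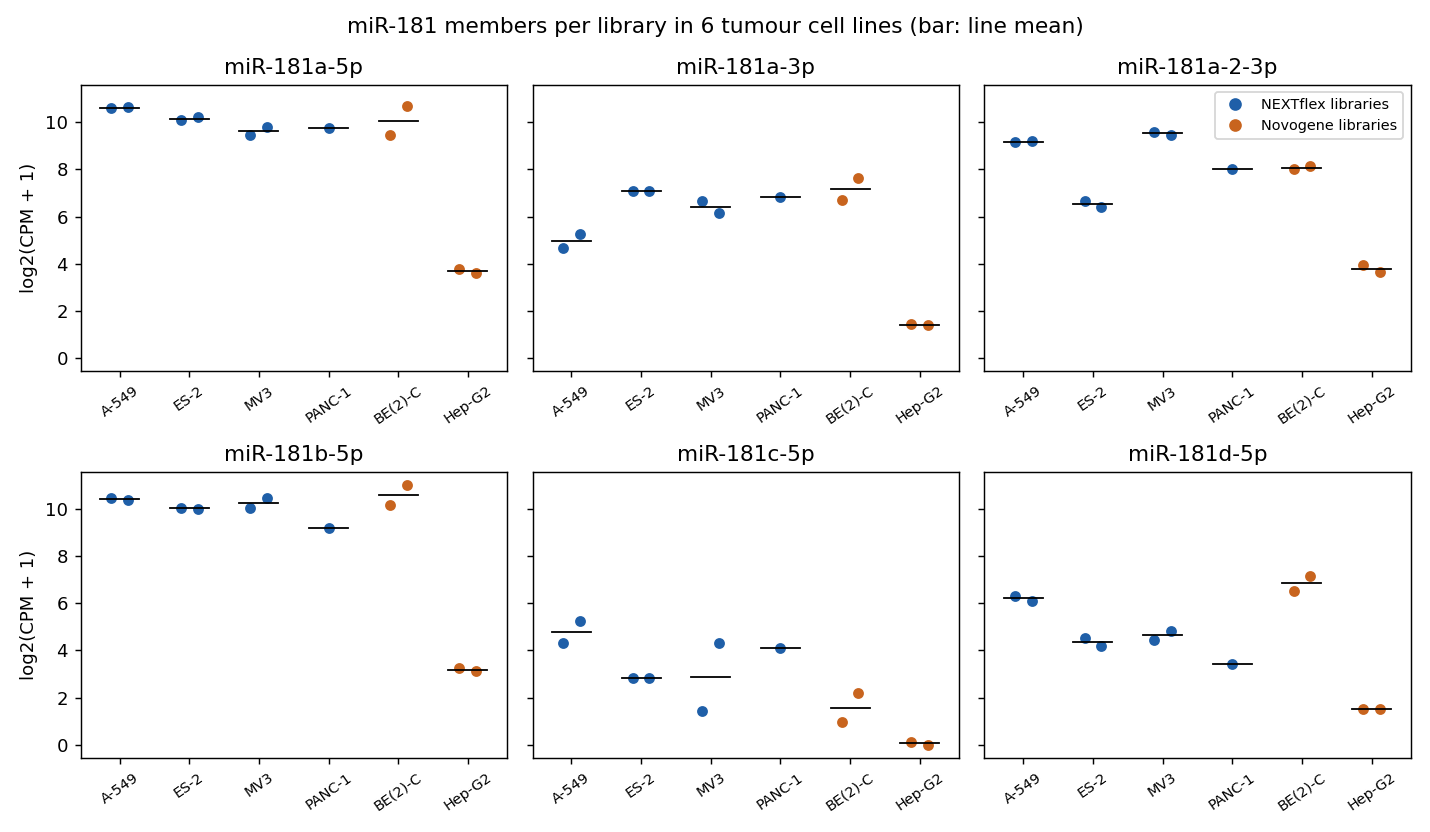
Levels of the 6 miR-181 members as log2(CPM + 1) (vertical axis) in each library of 6 cell lines (horizontal axis), with a bar at the line mean and colour for the library preparation. On this scale all members were at their lowest in Hep-G2, where miR-181a-5p had 12.7 and 11.2 CPM, whereas with TMM factors miR-181d-5p was lowest in PANC-1. miR-181a-3p was low in A-549 while miR-181a-2-3p was low in ES-2.

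The 3p strands of the miR-181a hairpins followed different orders over the lines. miR-181a-3p, made from chromosome 1, was measured at 24.7 and 37.9 CPM in A-549, 135 and 136 in ES-2, 99.7 and 71.0 in MV3, 114 in PANC-1, 103 and 197 in BE(2)-C and 1.68 and 1.65 in Hep-G2. Outside Hep-G2, A-549 lay below every other library, and the mean of ES-2 (136 ± 0.470 CPM, SD, n = 2) exceeded that of A-549 (31.3 ± 9.29 CPM, n = 2) 4.33-fold. miR-181a-2-3p, made from chromosome 9, was measured at 570 and 584 CPM in A-549, 99.8 and 85.0 in ES-2, 776 and 706 in MV3, 256 in PANC-1, 260 and 280 in BE(2)-C and 14.3 and 11.5 in Hep-G2. Here no line overlapped its neighbour in the order MV3, A-549, BE(2)-C, PANC-1, ES-2 and Hep-G2, and MV3 exceeded ES-2 8.02-fold. The step from BE(2)-C (260 CPM in its lower library) to PANC-1 (256 CPM in 1 library) was small and crossed preparations. How many of all miRNAs separate the lines in this way was not counted. With TMM factors the order began with A-549 (529 and 559 CPM) above MV3 (425 and 377 CPM), and ES-2 and Hep-G2 overlapped. By CPM, ES-2 ranked among the highest lines for the chromosome 1 strand and was the lowest line but Hep-G2 for the chromosome 9 strand.

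The share of miR-181a-3p among the reads of both 3p strands expresses this within a library and is independent of scaling. It was 4.16% (95% Wilson interval 3.28% to 5.25%) and 6.08% in A-549, 57.5% (52.6% to 62.3%) and 61.5% in ES-2, 11.4% and 9.14% in MV3, 30.8% in PANC-1, 28.4% and 41.4% in BE(2)-C and 10.5% and 12.5% in Hep-G2. These intervals cover counting error only, as amplified reads are not independent molecules. ES-2 was the one line in which the chromosome 1 strand held the majority. The log2 ratio of miR-181a-3p to miR-181a-2-3p differed between the 6 lines (F statistic, exact permutation over 10395 assignments of libraries to lines, p = 0.00077, adjusted over 6 ratios 0.00462), from 0.56 ± 0.17 (SD, n = 2) in ES-2 to -4.23 ± 0.41 (n = 2) in A-549. It also differed within the 4 NEXTflex lines (exact permutation p = 0.00952, the smallest that 105 assignments allow, adjusted 0.0286). This NEXTflex call was lost without any 1 of the A-549, ES-2 or MV3 libraries, where 45 assignments allow no exact permutation p below 0.0222. ES-2 stayed highest and A-549 lowest each time, 4.50 to 5.07 apart on the log2 scale. The loss therefore does not tell a weaker difference from this limit.

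The neighbouring miR-181b hairpins gave few 3p reads, between 11 and 334 per library for both strands together. By mean log2 ratio of miR-181b-3p to miR-181b-2-3p, A-549 was again lowest (-1.13) and ES-2 highest (2.09). BE(2)-C (1.96) and Hep-G2 (1.94) lay close to ES-2, although Hep-G2 was low in the miR-181a ratio (-2.92). With 5 reads added rather than 0.5, BE(2)-C was highest (1.84). The chromosome 1 share, that of miR-181b-3p, was 27.8% and 34.3% in A-549 and 86.7% and 75.9% in ES-2. It was 46.5% and 51.6% in MV3, 55.4% in PANC-1 and 79.6% and 79.8% in BE(2)-C. In Hep-G2 it was 90.9% (62.3% to 98.4%) of 11 reads and 69.2% (42.4% to 87.3%) of 13 reads. The ratio of miR-181b-3p to miR-181b-2-3p differed between the 6 lines (exact permutation p = 0.0204, adjusted 0.0245). It also differed within the NEXTflex lines (exact permutation p = 0.0190, adjusted 0.0286). The 6-line call was lost without any 1 of the A-549, MV3 or BE(2)-C libraries. The NEXTflex call was lost without any 1 of the A-549, ES-2 or MV3 libraries, where 45 assignments allow no exact permutation p below 0.0222. In each library the chromosome 1 share was higher for miR-181b than for miR-181a.

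Across the 9 libraries outside Hep-G2, the 3p strands of chromosomes 1 and 9 had positive correlations within a cluster. Between the clusters the correlation was negative for miR-181a and weak for miR-181b. On the log2(CPM + 1) scale, Pearson's r was 0.88 for miR-181a-3p with miR-181b-3p (chromosome 1) and 0.73 for miR-181a-2-3p with miR-181b-2-3p (chromosome 9). It was -0.60 for miR-181a-3p with miR-181a-2-3p and -0.15 for miR-181b-3p with miR-181b-2-3p. Over all 11 libraries, with Hep-G2 low in all of these strands, the values were 0.98, 0.92, 0.69 and 0.71. Of the chromosome 19 cluster, miR-181c-5p with miR-181d-5p had an r of -0.12 without Hep-G2, 0.51 within the NEXTflex libraries and 0.50 over all. For the other MIR181C strand, miR-181c-3p, with miR-181d-5p these values were 0.84, 0.74 and 0.72, with few miR-181c-3p reads outside BE(2)-C. These are descriptions over libraries that share a line, a preparation and a total.

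**Figure D2:**
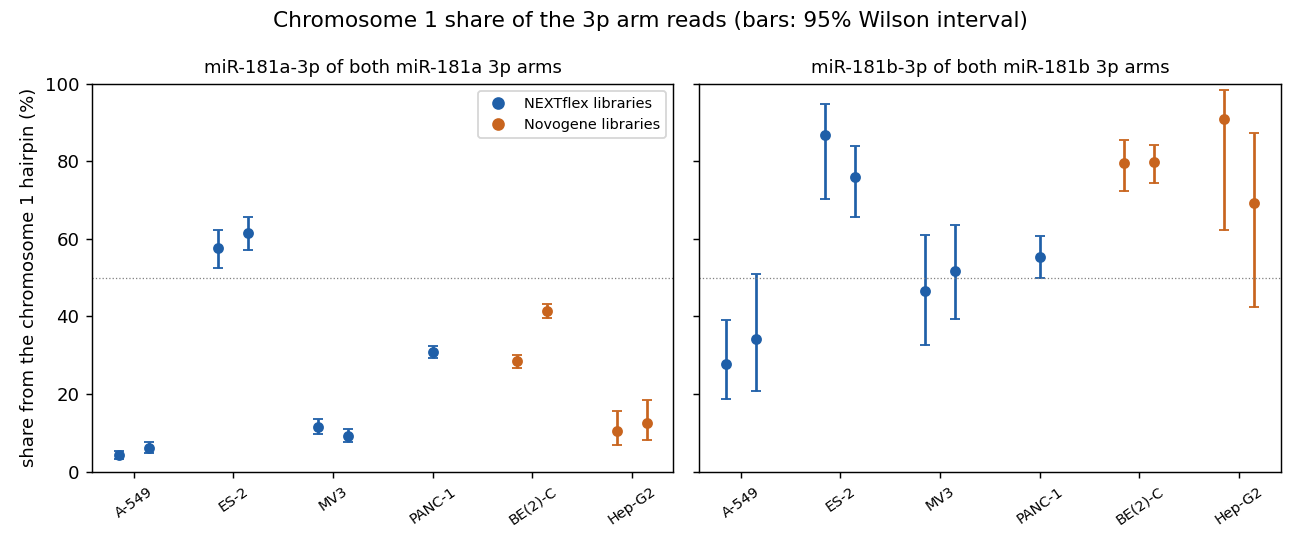
Share of 3p reads from the chromosome 1 hairpin (vertical axis, %) in each library of 6 cell lines (horizontal axis), for miR-181a on the left and miR-181b on the right, with 95% Wilson intervals and colour for the preparation. The miR-181a share ran from 4.16% in A-549 to 61.5% in ES-2, and the wide intervals of the Hep-G2 miR-181b shares rest on 11 and 13 reads.

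Among the 5p members, those of chromosome 19 were the rare ones. The chromosome 1 strand miR-181a-3p was lower than miR-181d-5p in A-549 and Hep-G2. miR-181d-5p was measured at 77.9 and 68.4 CPM in A-549, 22.2 and 17.4 in ES-2, 20.4 and 27.8 in MV3, 9.64 in PANC-1, 90.3 and 144 in BE(2)-C and 1.85 and 1.89 in Hep-G2. BE(2)-C (117 ± 37.8 CPM, SD, n = 2) and A-549 (73.2 ± 6.70 CPM, n = 2) lay above all other lines without overlap, and ES-2 and MV3 overlapped. miR-181c-5p was measured at 18.7 and 37.4 CPM in A-549, 6.01 and 6.10 in ES-2, 1.70 and 18.7 in MV3, 16.0 in PANC-1 and 0.931 and 3.52 in BE(2)-C. In Hep-G2 it had 1 read in the first library and 0 in the second, at or under the limit of 3 reads, and no fold is given. The MV3 libraries, with 2 and 29 reads, overlapped both ES-2 and PANC-1.

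miR-181c-5p and miR-181d-5p, although 66 bases apart as hairpins, did not keep a fixed ratio. miR-181c-5p exceeded miR-181d-5p in PANC-1 (log2 ratio 0.73) and was below it in the other 10 libraries, down to a mean of -5.91 ± 0.83 (SD, n = 2) in BE(2)-C. The ratio differed between the 6 lines (exact permutation p = 0.0291, adjusted 0.0291), but not at this threshold within the NEXTflex lines (exact permutation p = 0.524), and the 6-line call was lost without any 1 of the A-549, ES-2, BE(2)-C or Hep-G2 libraries (adjusted p up to 0.0929), without Hep-G2 (adjusted p = 0.0656) or without BE(2)-C (adjusted p = 0.108, exact permutation tests).

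The strands of MIR181C also divided the libraries. miR-181c-5p made up 50.0% to 100% of the reads of both MIR181C strands in the 7 NEXTflex libraries (2 to 156 reads each). It made up 5.38% and 15.3% in BE(2)-C and 8.33% of 12 reads and 0% of 14 reads in Hep-G2. The sets did not overlap, and line and preparation cannot be told apart. These shares were examined after values had been seen and were given no test. miR-181c-3p had 123 and 127 reads in BE(2)-C and 0 of 156 in PANC-1, which allows up to 0.308 CPM there. miR-181d-5p made up at least 95.8% of the reads of both MIR181D strands in all 11 libraries.

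Together, miR-181a-5p and miR-181b-5p supplied nearly all reads with the family seed. miR-181a-5p made up 36.5% to 59.1% and miR-181b-5p 36.7% to 60.2% of the seed-sharing reads, and miR-181c-5p at most 1.22%. miR-181d-5p made up 0.652% to 2.54% in the NEXTflex libraries, 4.65% and 3.69% in BE(2)-C and 8.0% and 9.09% in Hep-G2. The ratio of miR-181a-5p plus miR-181b-5p to miR-181c-5p plus miR-181d-5p ran from 84.3 in ES-2 to 10.3 in Hep-G2 (geometric means, n = 2 each; exact permutation p = 0.00164, adjusted 0.00491). Within the NEXTflex lines the same test gave an exact permutation p of 0.0762 (adjusted 0.0914).

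The ratio of miR-181a-5p to miR-181b-5p moved over a small range. It was above 1 in A-549 (1.13), ES-2 (1.08) and Hep-G2 (1.47), and below 1 in MV3 (0.651) and BE(2)-C (0.697). These are geometric means (n = 2 each), and the 1 library of PANC-1 had 1.51. The difference exceeded the spread between replicates over the 6 lines (exact permutation p = 0.00298, adjusted 0.00596) and within the NEXTflex lines (exact permutation p = 0.0190, adjusted 0.0286). PANC-1, the highest line, had no replicate and added nothing to that spread. The ratio of miR-181a-5p to both miR-181a 3p strands varied more. It was 5.00 in ES-2, 2.60 in BE(2)-C, 2.59 in A-549, 2.37 in PANC-1, 0.963 in MV3 and 0.822 in Hep-G2. The 3p strands together exceeded the 5p strand in both Hep-G2 libraries (ratios 0.795 and 0.850). The MV3 libraries fell on either side of 1 (0.817 and 1.13). This ratio differed between the 6 lines (exact permutation p = 0.00616, adjusted 0.00924) and within the NEXTflex lines (exact permutation p = 0.00952, adjusted 0.0286). Both NEXTflex calls were lost without any 1 of the A-549, ES-2 or MV3 libraries, where 45 assignments allow no exact permutation p below 0.0222.

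**Figure D3:**
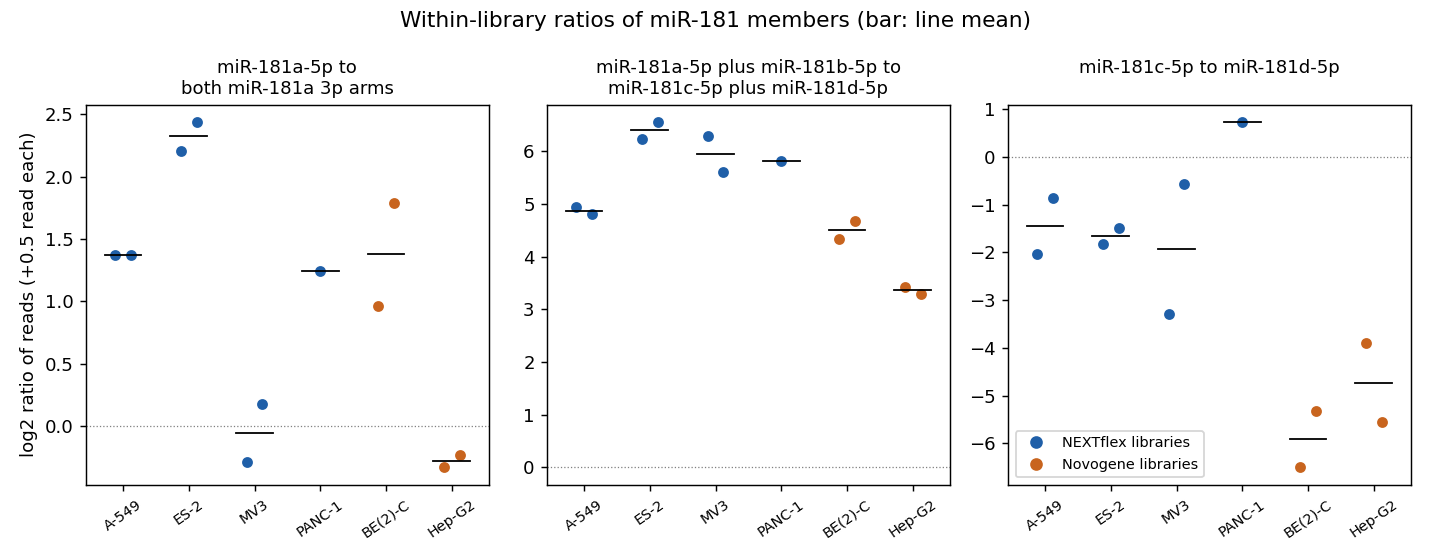
Within-library log2 ratios of miR-181 reads (vertical axes, 0.5 read added to each sum) per library of 6 cell lines (horizontal axis), with a bar at the line mean and colour for the preparation. The 5p to 3p ratio of miR-181a was highest in ES-2 (5.00) and lowest in Hep-G2 (0.822), and miR-181c-5p exceeded miR-181d-5p in PANC-1 alone.

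The lines were then compared member by member with limma on log2(CPM + 1), adjusted over all 546 miRNAs with a mean of at least 10 CPM in some line. All 6 members passed this filter. The F test over the 6 lines called 6 of 6 members, against 99.3% of all miRNAs tested, so that a call sets no member apart. Adjusted p ran from 3.66e-07 (miR-181a-2-3p) to 0.0111 (miR-181c-5p). Within the NEXTflex lines 5 of 6 were called, against 85.4% of 453 miRNAs. Adjusted p was 8.78e-05 for miR-181a-2-3p, 0.00438 for miR-181a-5p, 0.00526 for miR-181d-5p, 0.00631 for miR-181a-3p and 0.00804 for miR-181b-5p, while miR-181c-5p was not called (limma, adjusted p = 0.305). Without MV3 replicate 2 miR-181c-5p was called there as well (adjusted p = 0.0317), and without A-549 replicate 1 the call of miR-181b-5p was lost (adjusted p = 0.0521). Without Hep-G2 replicate 2 the 6-line call of miR-181c-5p was lost (limma, adjusted p = 0.0518).

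The 3 NEXTflex lines with replicates differed in 1 to 3 members per pair. Between A-549 and ES-2, 3 of 6 members were called, against 50.5% of all miRNAs. miR-181a-2-3p was higher in A-549 by 2.63 ± 0.18 on the log2 scale (SE, limma adjusted p = 1.50e-05) and miR-181d-5p by 1.84 ± 0.32 (adjusted p = 0.00197). miR-181a-3p was lower in A-549, with a log2 difference of -2.11 ± 0.37 (limma adjusted p = 0.00190). Between A-549 and MV3, 3 of 6 were called, against 57.3%. These were miR-181d-5p (1.58 ± 0.32, adjusted p = 0.00426), miR-181a-5p (0.99 ± 0.35, adjusted p = 0.0451) and miR-181a-3p (-1.43 ± 0.37, adjusted p = 0.0115, limma), and the last call was lost with TMM factors (-0.64). With TMM factors miR-181b-5p (0.99, limma adjusted p = 0.0235) and miR-181c-5p (2.49, adjusted p = 0.0310) were called in this pair in addition. Without A-549 replicate 1, or without MV3 replicate 1, 1 member was called. Between ES-2 and MV3, miR-181a-2-3p alone was called (-2.99 ± 0.18, limma adjusted p = 2.34e-05), against 32.8% of all miRNAs. TMM factors added miR-181a-3p in this pair (1.16, limma adjusted p = 0.0431) and miR-181c-5p between A-549 and ES-2 (2.22, adjusted p = 0.0463).

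Against BE(2)-C, fewer than the background share of contrasts passed in each pair on the CPM scale. With quantile normalization, however, 6 of 6 members were called between A-549 and BE(2)-C. A-549 and BE(2)-C differed in 3 of 6 members, against 76.7% of all miRNAs, namely miR-181c-5p (3.22 ± 0.88, adjusted p = 0.0107), miR-181a-2-3p (1.10 ± 0.18, adjusted p = 0.000699) and miR-181a-3p (-2.19 ± 0.37, adjusted p = 0.000828, limma). ES-2 and BE(2)-C differed in 2 of 6, against 77.5%, with miR-181d-5p (-2.47 ± 0.32) and miR-181a-2-3p (-1.54 ± 0.18) lower in ES-2, the latter turning to 0.11 with quantile normalization. MV3 and BE(2)-C differed in 2 of 6, against 78.0%, with miR-181a-2-3p higher (1.45 ± 0.18) and miR-181d-5p lower (-2.21 ± 0.32) in MV3. Without BE(2)-C replicate 1 these last 2 pairs had 4 and 5 calls. The preparation changed together with the line in these 3 pairs.

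On the CPM scale Hep-G2 had the lowest level of each member (with TMM factors, of each but miR-181d-5p), by log2 differences of 5.94 to 6.93 for miR-181a-5p and 6.86 to 7.41 for miR-181b-5p against the 4 other replicated lines. A-549, ES-2 and MV3 exceeded Hep-G2 in 6 of 6 members each, against 55.7%, 48.5% and 58.2% of all miRNAs called in that direction. Each of these counts includes miR-181c-5p, which had 1 and 0 reads in Hep-G2. With a pseudocount of 5 CPM, or without the filter, 5 of 6 members were called for ES-2 and for MV3 against Hep-G2. BE(2)-C exceeded Hep-G2 in 5 of 6, against 74.7%, with miR-181c-5p not called (limma adjusted p = 0.150). The median difference of the members was 5.05, 4.26, 5.37 and 5.54 for A-549, ES-2, MV3 and BE(2)-C, beside 1.55, 1.02, 1.91 and 2.79 over all miRNAs tested. With miR-181c-5p in Hep-G2 set to 3 reads per library the members' medians were 5.04, 4.26, 5.37 and 5.54. These contrasts share the Hep-G2 libraries, and for BE(2)-C alone the preparation was the same.

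With TMM factors the differences from Hep-G2 became smaller. miR-181a-5p was then 64.0 ± 17.6 CPM (SD, n = 2) in Hep-G2 against 1483 ± 38.0 CPM (n = 2) in A-549, and its log2 differences over the 4 lines were 2.75 to 4.54, all called. miR-181b-5p remained higher outside Hep-G2 by 3.92 to 4.91, all called. Between ES-2 and Hep-G2 the calls of miR-181a-2-3p (0.04 ± 0.25, and -0.0048 with edgeR) and miR-181d-5p (0.55 ± 0.32) were lost, and between MV3 and Hep-G2 those of miR-181c-5p (limma adjusted p = 0.0615) and miR-181d-5p (0.35 ± 0.32). On this scale PANC-1, at 5.47 CPM, replaced Hep-G2 as the lowest line for miR-181d-5p. How far the 72.6% to 75.3% of reads taken by miR-148a-3p lowered the other levels in Hep-G2 was not tested.

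**Figure D4:**
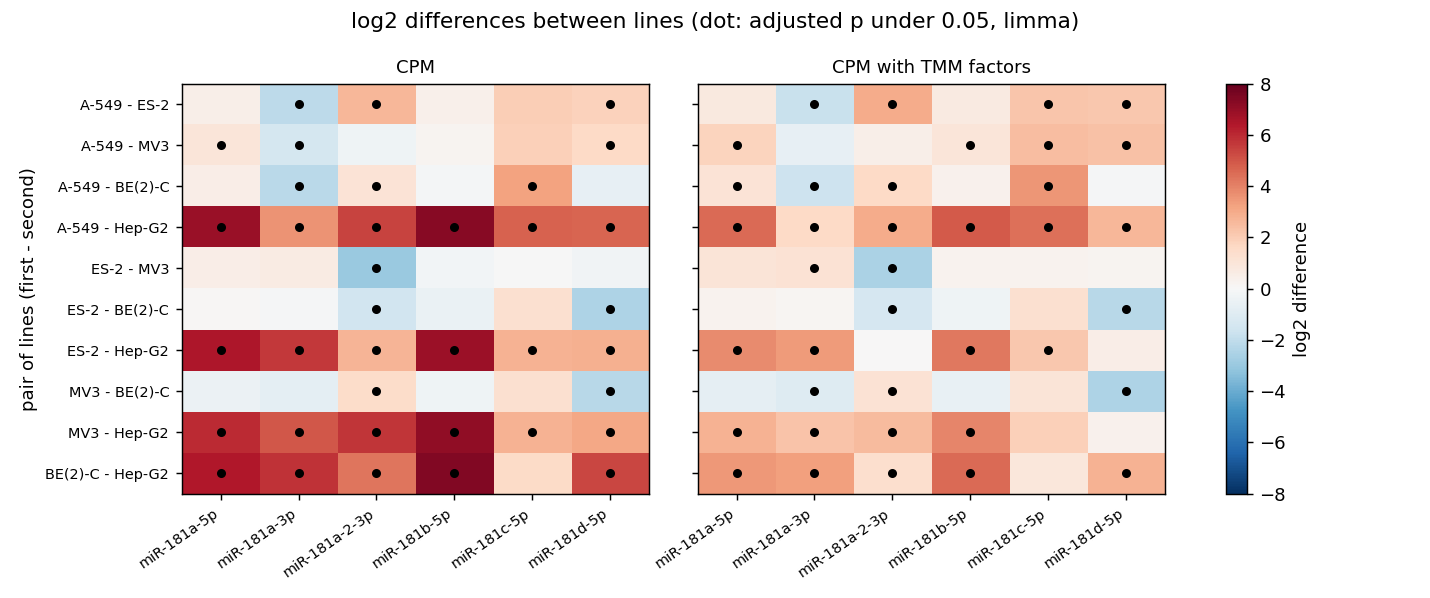
log2 differences of the 6 members (columns) for 10 pairs of lines (rows, first minus second), on CPM at left and with TMM factors at right, with a dot where limma's adjusted p was under 0.05. The 4 rows with Hep-G2 hold the strongest differences for miR-181a-5p and miR-181b-5p on both scales, and the miR-181a-2-3p difference between ES-2 and Hep-G2 falls from 2.75 to 0.04. The colours of miR-181c-5p against Hep-G2, which had 1 and 0 reads, depend on the pseudocount and show no fold.

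The miRNAs whose pattern over the 11 libraries was most like that of miR-181a-5p outside the family were let-7b-5p (Pearson's r 0.973 on log2(CPM + 1)), miR-503-5p (0.966), miR-2355-3p (0.965), miR-450b-5p (0.963) and miR-450a-5p (0.961), among 546 tested. Without the Hep-G2 libraries these values were 0.124, 0.278, 0.125, 0.384 and 0.516, so that the likeness rested on low levels in Hep-G2, where let-7b-5p had 5.72 CPM. For miR-181d-5p the most alike were miR-320b (0.947), miR-450a-5p (0.904), miR-542-3p (0.904), miR-331-3p (0.898) and miR-1180-3p (0.874). Without Hep-G2 the value of miR-320b was 0.858 and that of miR-1180-3p was 0.653. With TMM factors over all libraries miR-320b had 0.904, the next 3 had 0.676 to 0.695, and miR-1180-3p had 0.076. Libraries share lines, preparations and totals, and no p is given.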

How the data were processed

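Small RNA-seq of 11 libraries was deposited as 1 table per cell line. Per the labels' processing notes the submitters used cutadapt 1.14, Bowtie2 2.3.2, SAMtools 1.5, featureCounts 1.5.3 and edgeR 3.30.3 with build hg38; their handling of reads that match several copies was not given in the sources used here. The authors deposited CPM for PANC-1 and, for the other 5 lines, a scaled CPM signal, that is CPM divided by a factor set within each table. Every nonzero value (100%) was a whole multiple, within 0.01, of what 1 read was worth, so reads were recovered, rows of 1 name were summed and CPM was recomputed per library over 1000000. The reads ranged from 1173902 to 12137452 per library. The replicates were biological according to the study's methods.

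Levels were compared with limma 3.58.1 (R 4.3.3) on log2(CPM + 1), with the cell line as factor and a trended variance. Benjamini-Hochberg adjustment was applied at 0.05. The 1 CPM added before the logarithm understates fold changes of low members. PANC-1 has 1 library and entered no pair. Within-library ratios, with 0.5 read added, were compared by exact permutation of the F statistic, computed with numpy 2.4.6. The smallest exact permutation p possible was 9.62e-05 for 6 lines and 0.00952 for the NEXTflex lines. Wilson intervals were computed with scipy 1.17.1. Scripts were tested on simulated data. The alternatives were TMM factors, quantile normalization, the deposited scale, other pseudocounts (0.5 and 5), other filters, edgeR 4.0.16 on recovered reads, a replicate block and leaving out each replicate. The design had been written for CPM; the test for CPM was kept for the scaled signal after CPM was recomputed. The members, their 4 other arms and the marker lists were chosen with earlier results of these data known. The miRNAs named are the members, these arms, those sharing the seed, and the 5 most alike to miR-181a-5p and to miR-181d-5p.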

Additional observations from a re-analysis of the deposited data

How the results depend on the processing

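Of the 37 differences between lines called among 60, all 37 kept their call and direction with a pseudocount of 0.5 CPM, with the replicate block and without PANC-1. The number kept was 35 with a pseudocount of 5 CPM, 34 without the filter, 33 with edgeR (4 others gained), 32 with TMM factors (6 gained), 29 with quantile normalization (11 gained) and 34 to 37 with 1 replicate left out (0 to 9 gained). The replicate numbers did not pair the samples (correlations of deviations -0.053 to 0.109, 1 of 10 over 0.1), and the replicate block changed no call, with 6 members called over the 6 lines. The number of members called moved by over 1.5 times with quantile normalization to 5 (A-549 and ES-2), 6 (A-549 and BE(2)-C) and 2 (ES-2 and MV3), and with TMM factors to 2 (ES-2 and MV3). By less, TMM factors gave 4 for A-549 with each of ES-2, MV3 and BE(2)-C, 3 for MV3 and BE(2)-C, and 4 for ES-2 and for MV3 with Hep-G2. Leaving out 1 replicate gave 1 to 3 calls for A-549 and MV3, 1 to 2 for ES-2 and MV3, 2 to 4 for ES-2 and BE(2)-C and 2 to 5 for MV3 and BE(2)-C.

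Some differences changed sign, among them 2 called ones of miR-181a-2-3p, ES-2 minus BE(2)-C (-1.54) and ES-2 minus Hep-G2 (2.75). For A-549 minus BE(2)-C, miR-181b-5p was 0.37 with TMM factors, 1.34 with quantile normalization, 0.49 with edgeR and -0.60 to 0.28 with 1 replicate left out, and miR-181d-5p was 0.85 with quantile normalization and 0.033 with edgeR. For ES-2 minus BE(2)-C, miR-181a-5p was -0.53 to 0.69 with 1 replicate left out, and miR-181a-2-3p was 0.11 with quantile normalization. In this pair miR-181a-3p was 0.14 with TMM factors, 1.49 with quantile normalization, 0.30 with edgeR and -0.54 to 0.39 with 1 replicate left out. For ES-2 minus Hep-G2, miR-181a-2-3p was -0.0048 with edgeR. The cause was not tested.

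Of the ratios over 6 lines, leaving out 1 replicate gave adjusted exact permutation p of 0.0110 to 0.0792 for miR-181b-3p to miR-181b-2-3p (0.0546 without BE(2)-C) and 0.0145 to 0.0929 for miR-181c-5p to miR-181d-5p (0.0656 without Hep-G2, 0.108 without BE(2)-C). Within the NEXTflex lines the 4 called ratios gave 0.0667 to 0.1 each, where 45 assignments allow no p below 0.0222. TMM factors moved 22 of the 30 levels in lines with 2 libraries by more than the spread between replicates (1 SD). The depth limits miR-181c-5p, with 0 to 2 reads in 3 libraries, and the miR-181b 3p strands in Hep-G2. Settings without BE(2)-C, without Hep-G2 and without PANC-1 were chosen after seeing the data.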
